A study of Mus musculus with 8 samples.

Results

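Metallothioneins and the genes that sense and move zinc were examined in single hematopoietic stem cells (HSCs) of mice with and without a deletion of Med23. This gene encodes part of Mediator, the protein complex that links transcription factors to RNA polymerase II. The set had 5 genes: the metallothioneins Mt1 and Mt2, the zinc-sensing transcription factor Mtf1, the zinc exporter Slc30a1 and the zinc importer Slc39a10. Its members were selected on the measured difference between the labels, since Mt1 and Mt2 are among the genes the study lists as changed in these same cells, and the other genes were taken along as their regulator and partners. Of the 5, 4 were among the 10720 genes of the table, and the level of Slc30a1 was not analysed here. All differences of the members below are therefore a description with no test, and they are not independent evidence of a direction.

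The cells came from bone marrow of adult C57BL/6 mice and were sorted as LSK CD150+CD34-CD48-, where LSK stands for lineage-negative cells with Sca-1 and Kit on their surface. The labels call the mice wild type or Med23-deficient. In the study KO mice were Mx1-cre+ Med23 L/L, in which poly(I:C) switches on the recombinase that deletes the floxed gene, and WT mice were Mx1-cre- littermates with the same floxed Med23 L/L alleles. The study drew blood from both WT and KO mice after poly(I:C), and the labels of the sequenced cells do not state the treatment. Mx1-cre acts in every cell that answers interferon, so the deletion was not limited to HSCs, and poly(I:C) itself triggers an interferon response. The labels give 4 libraries for each genotype, 8 in all, but the columns of the table carry only genotype and cell number. Each label was therefore 1 pooled sample, animal and library cannot be told apart from genotype, and no p-value was computed.

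Each value is a number of unique molecular identifiers (UMIs), that is, of distinct RNA molecules captured by their poly(A) tail. Of 304 cells labelled WT and 282 labelled KO, 259 and 234 had at least 2000 genes and 20000 UMIs in the table and were kept, 493 of 586. They held 21475782 and 16180546 UMIs, with a median per cell of 59649 (range 20038 to 496293) and 50281 (20027 to 467384). Levels are given per 1000000 UMIs of the pool or of the cell (CPM), with exact 95% Poisson intervals for pools and exact Clopper-Pearson intervals for shares of cells, all of which cover counting error only. Every marker of an 11-gene HSC list was in the table, and every kept cell had a UMI of at least 1 of them, with a median summed level of 1096 CPM in WT and 871 CPM in KO. Of other lists, 0 of 7 lymphocyte genes, 2 of 7 neutrophil genes, 3 of 6 macrophage genes and 2 of 7 erythroid genes were in the table. So were 6 of 8 stroma and endothelium genes. Median summed levels in WT and KO were 214 and 266 CPM for macrophage and 1130 and 1012 CPM for erythroid genes. For stroma and endothelium they were 28.7 and 26.6 CPM. Of these 6 genes 4 were more than 2-fold lower in KO and 1 higher, beside 7.94% and 6.98% of all genes. Col1a1 had 345 UMIs in WT and 4 in KO. Some values go against the labels. Med23 itself had 122 UMIs in WT and 117 in KO, a log2 ratio of 0.35 (-0.03 to 0.73), so the deletion does not show in its level, although UMIs counted at the 3' end check nothing if the deleted part lies elsewhere. Transcripts of egg cells, which blood cells lack, were also present: all 15 genes of an oocyte list were in the table, and 56 kept cells labelled WT but 1 labelled KO had more than 1000 CPM of them. Summed over that list, cells labelled WT held 0 to 47882 CPM (median 180) and cells labelled KO 0 to 1453 CPM (median 6.80). Levels and shares of the members are given with and without these cells, and the pools are called by their labels throughout.

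Metallothioneins are small cytosolic proteins, rich in cysteine, that bind zinc and copper and buffer the free metal in the cell. When free zinc rises, it binds the zinc fingers of Mtf1, which moves to the nucleus and switches on Mt1, Mt2 and Slc30a1 through short DNA motifs called metal response elements. Slc30a1 carries zinc out of the cell, whereas Slc39a10 carries it in and is held down by Mtf1. Glucocorticoids, oxidative stress and inflammatory signals raise metallothioneins as well.

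Mt1 and Mt2 lie next to each other on mouse chromosome 8 on the same strand, with 6471 bases between the start sites that RefSeq annotates in build GRCm38.p6. Their promoters are shown because these are the members whose levels differ most and because the motif Mtf1 reads can be seen in them. The stretch runs from 250 bases before to 30 bases after the start site, at chr8:94178839-94179118 for Mt1 and chr8:94172368-94172647 for Mt2, both on the plus strand and written 5' to 3'. Capitals mark the core of the metal response element, TGCACNC or TGCGCNC, where N is any base, read on either strand.
Mt1: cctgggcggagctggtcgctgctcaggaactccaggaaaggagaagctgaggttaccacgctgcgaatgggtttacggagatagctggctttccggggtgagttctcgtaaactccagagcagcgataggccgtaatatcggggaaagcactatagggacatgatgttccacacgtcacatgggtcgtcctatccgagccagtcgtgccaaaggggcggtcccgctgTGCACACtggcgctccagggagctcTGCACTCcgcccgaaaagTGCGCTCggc
Mt2: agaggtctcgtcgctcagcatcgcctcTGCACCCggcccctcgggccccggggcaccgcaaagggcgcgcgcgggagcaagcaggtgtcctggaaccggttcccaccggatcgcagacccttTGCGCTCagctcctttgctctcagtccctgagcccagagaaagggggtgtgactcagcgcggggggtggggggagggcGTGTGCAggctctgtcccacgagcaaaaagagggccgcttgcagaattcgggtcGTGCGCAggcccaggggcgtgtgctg
In the full window of 250 bases before to 50 after the start, Mt1 held 3 matches, which began at positions -23, 3 and 21, all on the strand of the gene. Mt2 held 4 matches, at -223 and -128 on the strand of the gene and at -50 and 5 on the other one. Among 32851 RefSeq promoters of the same length, 25.7% held at least 1 match (12.6% TGCACNC and 15.4% TGCGCNC) and the median was 0. As many matches as in Mt1 were found in 1.97% of them, and as many as in Mt2 in 0.517%. The window of Slc30a1 held 2 matches, a number reached by 7.11% of promoters. That of Mtf1 and both windows of Slc39a10, which has a pair of start sites in the table, held 0, which says only that these letters are not there. GC bases made up 60.7% of the Mt1 window and 67.7% of the Mt2 window, against a median of 52.7%, and both motifs are themselves rich in them. A match is a sequence feature and not a measured binding site, and other start sites of these genes were not searched. The annotated start of Mt1 may lie upstream of the start most used. Its matches would then sit further upstream of that start, and the window would not reach all of the sequence next to it. Which start these cells use was not tested.

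**Figure D1:**
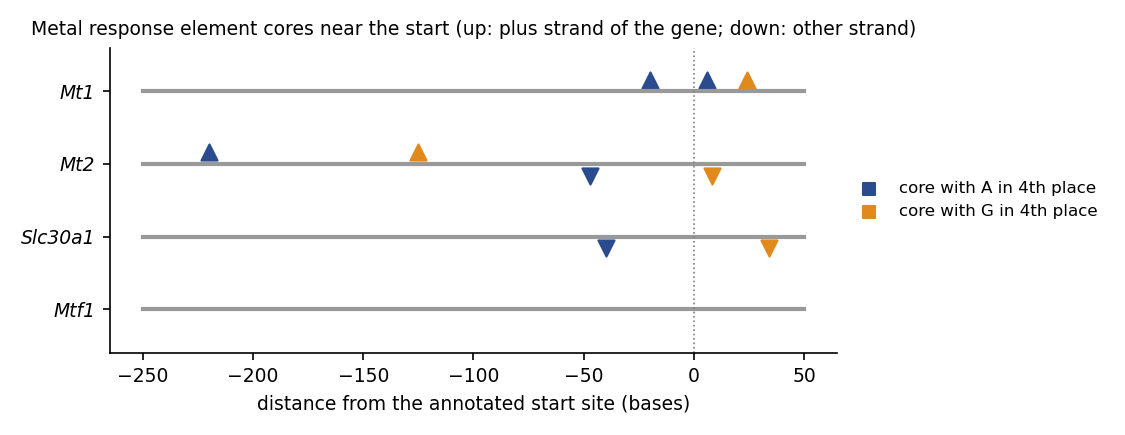
Positions of the metal response element core in the promoters of Mt1, Mt2, Slc30a1 and Mtf1, in bases from the annotated start site (dotted line); triangles pointing up are matches on the strand of the gene and those pointing down on the other strand, with blue for TGCACNC and orange for TGCGCNC. Mt1 shows 3 matches, all within 50 bases of the annotated start, Mt2 shows 4 spread over the window, Slc30a1 2 and Mtf1 0.

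Mt1 was the most abundant member in the pool labelled WT and was much scarcer in the pool labelled KO. It had 1911 UMIs in WT, or 89.0 CPM (85.0 to 93.1), and 240 UMIs in KO, or 14.8 CPM (13.0 to 16.8). The level was 6.00-fold lower in KO, a log2 ratio of -2.58 (-2.78 to -2.39), and 288 of the 10720 genes had a lower ratio. Mt2, which encodes the second widely expressed metallothionein, was lower too, by less. It had 311 UMIs in WT and 108 in KO, or 14.5 CPM (12.9 to 16.2) and 6.67 CPM (5.48 to 8.06), a log2 ratio of -1.12 (-1.45 to -0.80). Both metallothioneins in the table were thus more than 2-fold lower in KO, where 7.94% of all genes were more than 2-fold lower and 6.98% more than 2-fold higher. Since the members were selected on this difference, nothing is read from their count against that share. The 2 genes shared 0 stretches of 31 bases in annotated transcripts, and Mt2 shared 3 with Pip5k1a, so reads of Mt1 and Mt2 were not interchangeable at that length.

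Mtf1 and Slc39a10 differed less than the metallothioneins. Mtf1 had 245 UMIs in WT and 147 in KO, or 11.4 CPM (10.02 to 12.9) and 9.08 CPM (7.68 to 10.7), a log2 ratio of -0.33 (-0.63 to -0.03). Without the cells with oocyte transcripts this ratio was -0.13 (-0.46 to 0.20), an interval that holds 0. Slc39a10, a plasma membrane importer that lymphocytes are known to need, had 791 and 321 UMIs, or 36.8 CPM (34.3 to 39.5) and 19.8 CPM (17.7 to 22.1), a log2 ratio of -0.89 (-1.08 to -0.70). Leaving out the same cells gave -0.92. On the scale of CPM, which counts molecules and is not divided by transcript length, the order of levels in WT was Mt1, Slc39a10, Mt2 and Mtf1, and in KO it was Slc39a10, Mt1, Mtf1 and Mt2. The intervals of Mt2 and Mtf1 overlap in either label, and those of the other neighbours in each order do not. The place of Mt1 above Mtf1 in KO rests on 1 cell, described below, without which Mt1 was at 6.09 CPM (4.95 to 7.43) and Mtf1 at 9.14 CPM (7.72 to 10.7). In WT, Mt2 stood below Mtf1 once the cells with oocyte transcripts were left out, at 8.37 CPM (7.04 to 9.88) and 9.93 CPM (8.47 to 11.6).

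**Figure D2:**
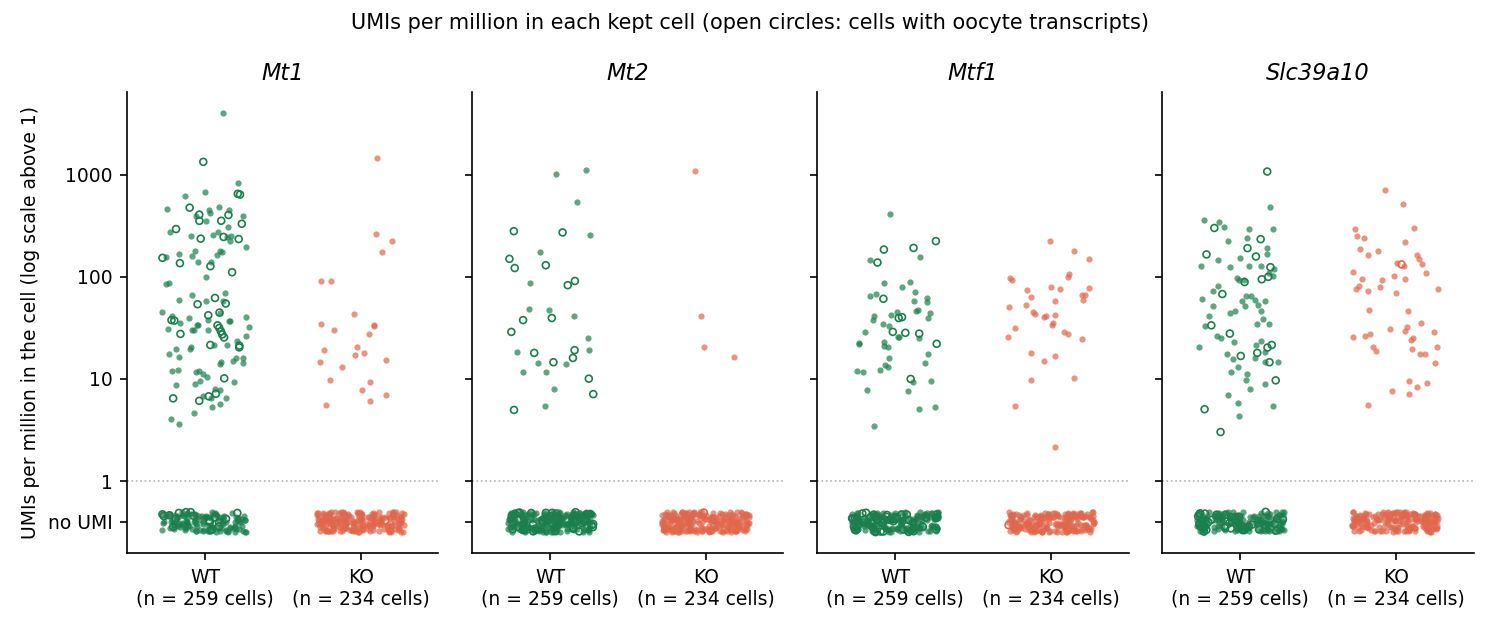
CPM in each of 259 kept cells labelled WT (green) and 234 labelled KO (coral) for Mt1, Mt2, Mtf1 and Slc39a10, on a log scale above 1 and with cells without a UMI on the lowest row; open circles are cells with more than 1000 CPM of oocyte genes. Mt1 reaches 4003 CPM in WT and 1460 CPM in KO, and Mt2 has a UMI in 35 cells labelled WT and in 4 labelled KO.

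Within the pool labelled WT, Mt1 was spread very unevenly over cells. At least 1 UMI was found in 127 of 259 cells, 55 of them with a single UMI, 25 with 2 to 9 and 47 with 10 or more. Those 47 cells held 92.5% of the UMIs, and the richest of them had 194, 126 and 82. In CPM of the cell, the lowest and the median were 0, the 75th percentile was 38.5, the 90th 250 and the highest 4003. Without the cells with oocyte transcripts, 89 of 203 cells had a UMI and 30 had 10 or more, with 91.8% of the UMIs, a 75th percentile of 30.4 CPM and a 90th of 191. Most kept cells labelled WT thus had 0 or 1 captured UMI of Mt1, beside a minority with more. These counts are not at equal depth and are not numbers of molecules in the cell.

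In the pool labelled KO, Mt1 was found in 25 of 234 cells, with 1 UMI in 17, 2 to 9 in 3 and 10 or more in 5. Those 5 cells held 90.4% of the UMIs, and the richest had 142, 42 and 12. The lowest, the median and the 75th percentile were 0 CPM, the 90th percentile was 5.92 and the highest 1460. Cells with a UMI made up 49.0% of the pool in WT and 10.7% in KO, a ratio of 4.59. The same ratio for Zp3, an egg coat gene taken as background, was 4.82, from 68.0% and 14.1%, so that of Mt1 is not read as a result. The mean number of Mt1 UMIs in cells with a UMI was 15.0 and 9.60, a ratio of 1.57, and 1 cell carried the KO value: without it the mean was 4.08 and the ratio 3.69. Without the cells with oocyte transcripts the means were 14.0 and 9.60. The median in cells with a UMI was 2 in WT and 1 in KO.

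Cells labelled WT held more UMIs, so shares were also taken after each cell was thinned at random to 20000 UMIs. At that depth Mt1 was found in 80 of 259 cells labelled WT, 30.9% (25.3 to 36.9), and in 17 of 234 labelled KO, 7.26% (4.29 to 11.4). Mt2 was found in 21 and 2 cells, 8.11% (5.09 to 12.1) and 0.855% (0.104 to 3.05). The share for Mtf1 was 12.0% in WT and 11.5% in KO, and the order turned without the cells with oocyte transcripts, at 10.3% and 11.6%. For Slc39a10 it was 20.1% and 16.7%, and 20.2% and 16.3% without them. Without thinning these were 13.5% and 1.71% for Mt2, 22.4% and 15.8% for Mtf1 and 32.4% and 22.6% for Slc39a10. A gene that no blood cell should express gave the background: UMIs of Zp3 turned up at 20000 UMIs in 44.8% of cells in WT (38.6 to 51.1) and 8.12% in KO (4.96 to 12.4). No share of a metallothionein exceeded the Zp3 share of its label, so the shares are not read as fractions of cells that express the gene or as a difference between labels. How numbers of molecules compared depended on the cells with oocyte transcripts. In cells labelled WT with a UMI at this depth, the mean was 5.31 UMIs of Mt1 and 12.6 of Zp3. Without the cells with oocyte transcripts it was 5.24 of Mt1 and 1.61 of Zp3, and in KO it was 3.24 and 2. Zp3 is itself in the list that defines those cells, so its lower mean without them is built in. Whether Mt1 stands above background was not tested.

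The level of Mt1 was also taken by depth, in classes cut within each label that do not match in depth between labels. The lowest, middle and highest class began at 20038, 43120 and 87752 UMIs in WT and at 20027, 36631 and 65844 in KO. When the kept cells of each label were ranked by UMIs and split into 3 equal depth classes, Mt1 was at 21.3, 131 and 85.4 CPM in the lowest, middle and highest class in WT, and at 3.73, 9.23 and 19.3 CPM in KO. Of the 196 UMIs in the highest class in KO, 142 lay in 1 cell, and without it that class was at 5.38 CPM (4.04 to 7.02). Leaving out cells with oocyte transcripts put the classes in WT at 16.9, 108 and 70.8 CPM. In each class and with each of these sets of cells the level was lower in KO, and the pair of intervals did not overlap. For Mt2 the classes gave 12.0, 23.2 and 11.5 CPM in WT and 0.466, 0.513 and 10.4 CPM in KO, the last of which comes from 105 UMIs of that same cell. Among cells without oocyte transcripts, the highest class in WT had 2 UMIs of Mt2, or 0.193 CPM (0.0234 to 0.697). In KO the same class was at 10.4 CPM (8.47 to 12.5), so Mt2 was higher in KO there. Without that 1 cell it was at 0 CPM (0 to 0.367), and the pair of intervals overlapped.

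A single cell labelled KO carried most of what was left of the metallothioneins there. It held 142 of the 240 Mt1 UMIs in KO, or 59.2%, and 105 of the 108 Mt2 UMIs, or 97.2%. The other 233 cells labelled KO together had 98 Mt1 UMIs and 3 of Mt2. Among 9271 genes with at least 100 UMIs in KO, Mt2 had the highest share of UMIs in 1 cell, while 51 genes including Mt1 itself were at or above the share of Mt1, and the median was 10.7%. In WT the richest cell for each gene held 10.2% of the Mt1 and 16.7% of the Mt2 UMIs, beside a median of 10% over 9953 genes, and without the cells with oocyte transcripts it held 15.6% and 35.0%. A cell rich in both genes was also found in WT, without oocyte transcripts. It had 194 UMIs of Mt1 and 49 of Mt2, at 4003 and 1011 CPM. The KO cell had 1460 and 1080 CPM.

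**Figure D3:**
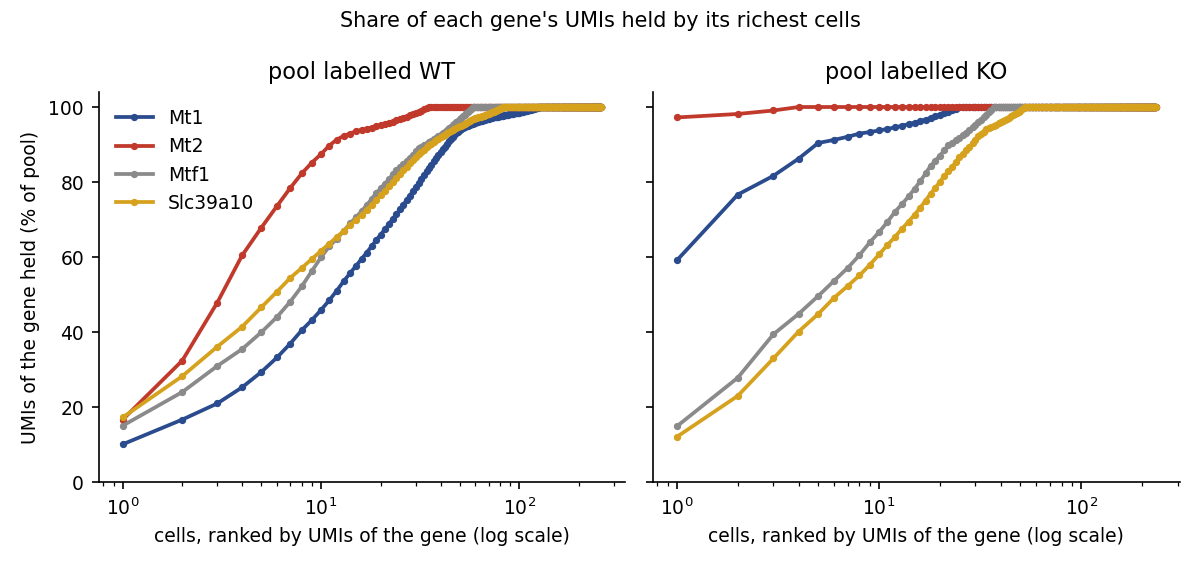
Share of the UMIs of each gene (percent of the pool) held by its richest cells, with cells ranked by their UMIs of that gene on a log axis, in the pool labelled WT (left) and KO (right). The curve of Mt2 in KO begins at 97.2% with the first cell and that of Mt1 at 59.2%, whereas in WT it takes 12 cells to reach 50% of Mt1.

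Several genes of that cell are described here, and they were named after their values had been seen. The cell had 97232 UMIs and 4141 detected genes, ranked 49 by UMIs among the kept cells labelled KO, and had 0 CPM of the oocyte list. Klf1, an erythroid transcription factor, had 37 of its 39 KO UMIs in it, and Car1, a carbonic anhydrase of the red cell lineage, had 955 of 989. The WT pool held 213 UMIs of Klf1, or 9.92 CPM against 2.41 CPM in the KO pool, and 3 UMIs of Car1. Klf1 was thus not particular to this cell across labels. Car2 was present in the cell with 428 UMIs, Gata1 with 5 and Epor, the erythropoietin receptor, with 8. The whole KO pool had Car2 at 1096 CPM, and Gata1 and Epor were not compared with other cells. Of the 11 HSC markers 2 were detected, with 2 UMIs of Kit and 1 of Ly6a, and Slamf1, which encodes the CD150 used in the sort, had 0. Mtf1 had 0 UMIs and Slc39a10 9. Mt1 and Mt2 stood at 1.35 to 1 in this cell, against 6.14 to 1 in the whole WT pool and 32.7 to 1 in the other cells labelled KO. The last of these rests on 3 UMIs of Mt2. Single cells labelled WT varied too, with 194 UMIs of Mt1 and 49 of Mt2 in 1 cell and 27 and 48 in another, so this ratio does not set the cell apart. Whether the cell belongs to the sorted population was not tested.

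Without that cell both differences were larger, as they had to be when the richest KO cell and no WT cell is left out. Mt1 then had 1911 UMIs in WT and 98 in KO, which is 6.09 CPM (4.95 to 7.43), and the log2 ratio was -3.87 (-4.18 to -3.57). Mt2 had 311 and 3, which left 0.187 CPM in KO (0.0385 to 0.545), and the log2 ratio was -6.28 (-8.56 to -4.72). With 3 UMIs behind it, this ratio is known only to within its interval. The ratios of Mtf1 and Slc39a10 were -0.32 and -0.92.

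Cells with oocyte transcripts moved the WT side. These 56 cells held 35.0% of the Mt1 and 55.0% of the Mt2 UMIs in WT. Mt1 was at 141 CPM (130 to 152) in them and at 74.3 CPM (70.3 to 78.6) in the other 203 cells, and Mt2 at 36.0 CPM (30.8 to 41.8) and 8.37 CPM (7.04 to 9.88). Mtf1 was at 16.6 and 9.93 CPM and Slc39a10 at 36.0 and 37.1 CPM. Without cells of this kind in either label, Mt1 had 1243 UMIs in WT and 240 in KO. Its log2 ratio was -2.32 (-2.53 to -2.12), beside -2.58 with all kept cells. The limit of 1000 CPM left oocyte signal that differed between labels. Of the 15 oocyte genes, 13 were still more than 2-fold lower in KO, and the median log2 ratio of the list was -2.91. How far the Mt1 difference in this set depends on that signal was not tested. Mt2 had 140 and 108 UMIs and a log2 ratio of -0.32 (-0.70 to 0.05), an interval that holds 0. Across the table, 6.88% of genes were then more than 2-fold lower in KO and 8.36% more than 2-fold higher. Of the 6 stroma and endothelium genes 2 were more than 2-fold lower in this set and 1 higher.

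Mt2 in the cells without oocyte transcripts thus rested on the 1 cell labelled KO described above. With that cell left out as well, Mt2 had 140 UMIs in WT and 3 in KO and a log2 ratio of -5.49 (-7.78 to -3.91), and Mt1 had 1243 and 98, a log2 ratio of -3.61 (-3.92 to -3.31). Of the 140 Mt2 UMIs in WT, 77.9% lay in 3 cells, an uneven spread that the counting interval does not cover. Shares at 20000 UMIs without the oocyte-transcript cells were 27.1% and 7.30% for Mt1, 5.42% and 0.858% for Mt2 and 35.5% and 8.15% for Zp3. The level of Mt1 was therefore lower in KO in each of these 4 selections of cells. That of Mt2 had an interval clear of 0 in all but the selection without oocyte-transcript cells alone. Selections without the KO cell with the most Mt2 drop the richest cell of 1 label only. Their larger differences were fixed in advance and are no added support.

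**Figure D4:**
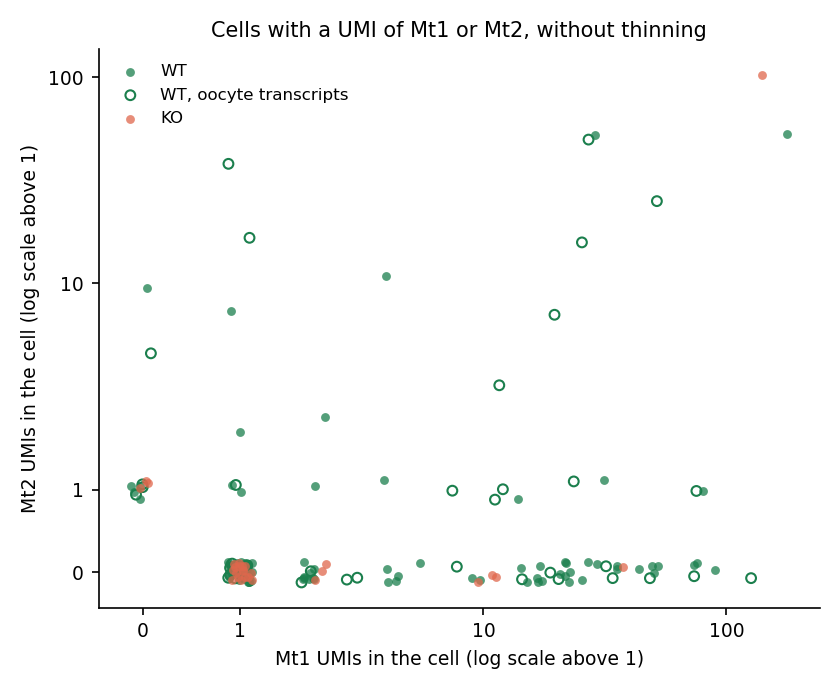
Mt1 UMIs (x axis) and Mt2 UMIs (y axis) in every kept cell with a UMI of either, on log axes above 1 with 0 drawn as a separate row and column and a small random shift to part the points; green is WT, coral is KO and open circles are cells with oocyte transcripts. The KO cell with 142 and 105 UMIs is the topmost point, the richest WT cell for Mt1 has 194, and most other cells lie on the rows with 0 or 1 UMI of Mt2.

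Most cells labelled WT in which Mt2 was found also had Mt1, while most cells with Mt1 lacked Mt2. At 20000 UMIs, 14 cells had both, 66 had only Mt1, 7 had only Mt2 and 172 had neither. Of the 21 cells with Mt2, 66.7% (43.0 to 85.4) had Mt1, whereas 30.9% of all cells had it. Read the other way, 17.5% of cells with Mt1 had Mt2, beside 3.91% of cells without Mt1. Pearson's r over the 259 cells, on log2(count + 1), was 0.32, and it was 0.36 without the oocyte-transcript cells. Cells of a pool share libraries and animals, and counts of 0 and 1 dominate both genes, so r is given with no p. In KO the r of 0.65 rested on 1 cell and was -0.016 without it, with 1 cell holding both genes, 16 only Mt1, 1 only Mt2 and 216 neither.

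Genes were ranked by their r to Mt1 over cells labelled WT where kept cells averaged 0.5 UMI or more, 9324 genes with the members included, and Mt2 came first. The next were Eno3, a muscle-type enolase, with r of 0.29, Cavin2, a protein of caveolae also found in platelets, with 0.29, Pfdn4, a prefoldin subunit, with 0.25, and Chst14, a dermatan sulfotransferase, with 0.24. In KO the r of these 4 to Mt1 was -0.04, 0.006, 0.04 and -0.01. These are weak correlations in sparse counts and are no finding. Mtf1 and Slc39a10 had r of -0.04 and -0.05 and ranked 6492 and 7349, values near 0. HSC markers were measured in the same split: in WT their median summed level was 850 CPM in the 80 cells with Mt1 and 1200 CPM in the 179 without, but 31.3% and 17.3% of these cells had oocyte transcripts. In KO both medians were 850 CPM.

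Zinc transporters as families did not share the difference of the metallothioneins. The 24 listed genes of the exporters (ZnT, Slc30a) and importers (ZIP, Slc39a) had 16 in the table, 8 of them higher in KO and 8 lower, with a median log2 ratio of -0.14 and a range from -2.58 to 0.97. Over all genes 5562 were higher in KO and 5158 lower, and the median was 0.02. Of 5 exporters 0 were past 2-fold in either direction. Their largest ratio was that of Slc30a5, which loads zinc into the secretory pathway, with 419 and 582 UMIs and a log2 ratio of 0.88 (0.70 to 1.07).

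Of 11 importers 1 was past 2-fold, and it was lower in KO, as were 7.94% of all genes, so this count is near the background. Slc39a8, a plasma membrane importer of zinc and manganese, had 135 UMIs in WT and 17 in KO, a log2 ratio of -2.58 (-3.40 to -1.85), and without the oocyte-transcript cells 98 and 15, a log2 ratio of -2.66. In the other direction, Slc39a6, the nearest relative of Slc39a10, had 415 UMIs in WT and 611 in KO, with a log2 ratio of 0.97 (0.78 to 1.15), just inside 2-fold. Slc39a1 had 1543 and 1666 UMIs and a log2 ratio of 0.52, and Slc39a14 had 111 and 53 and -0.66. Slc39a5 and Slc30a4 moved with the oocyte-transcript cells. Their log2 ratios were -0.50 and 0.34 with all kept cells and 1.13 and 1.26 without, on 27 and 57 and on 26 and 60 UMIs.

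**Figure D5:**
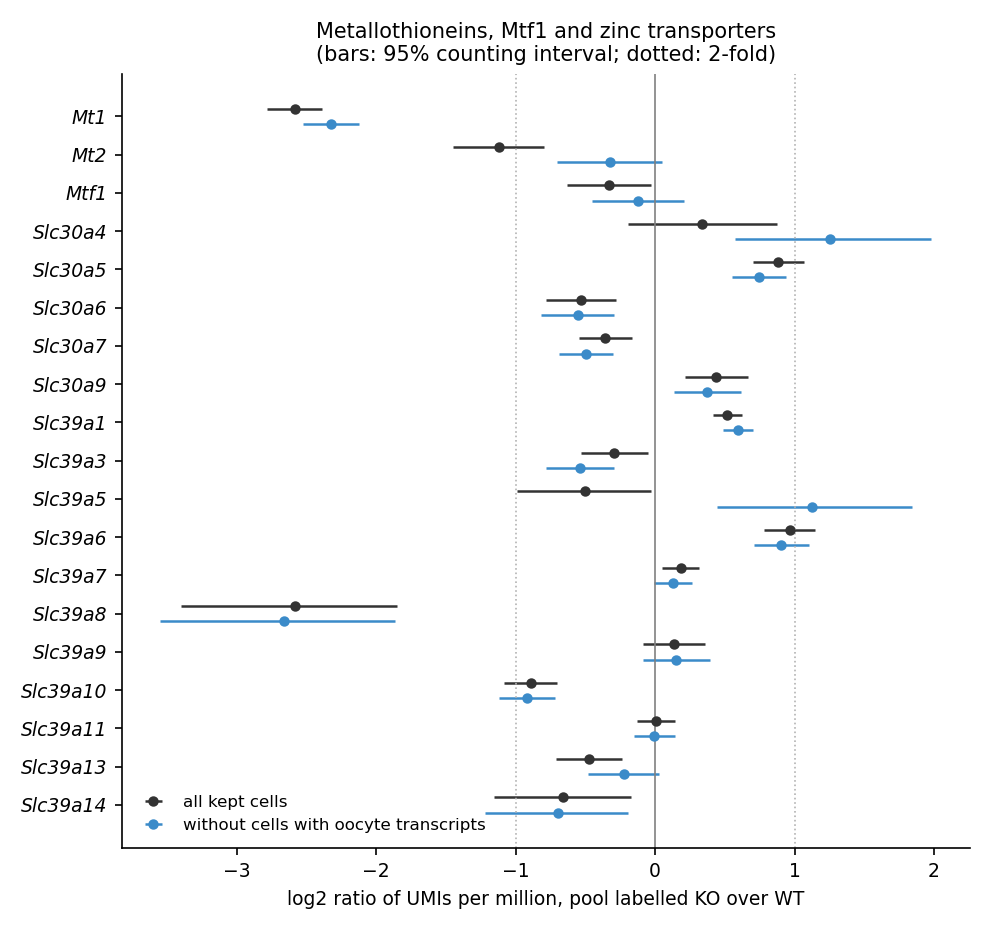
Log2 ratio of CPM, KO over WT, for the metallothioneins, Mtf1 and the 16 zinc transporters in the table, with all kept cells (black) and without cells with oocyte transcripts (blue); bars are 95% counting intervals and dotted lines mark 2-fold. Mt1 and Slc39a8 lie at -2.58 with all kept cells and left of the 2-fold line with either set, Mt2 moves from -1.12 to -0.32, and most transporters lie between the dotted lines.

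Other genes that Mtf1 or metal load is known to act on showed no common direction. Of 9 genes listed 8 were in the table, and the 2 past 2-fold were Mt1 and Mt2 themselves. The others had log2 ratios of -0.89 for Slc39a10, -0.09 for Selenow, a small selenoprotein, -0.07 for Ndrg1, a stress-responsive gene, 0.37 for Gclc, which makes the first step of glutathione synthesis, 0.47 for Csrp1, a zinc-binding LIM protein, and 0.59 for Pgf, a placental growth factor. The median of the 8 was -0.08. Zinc, metallothionein protein and binding of Mtf1 were not measured here.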

How the data were processed

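Single-cell RNA-seq of HSCs picked by hand after sorting was examined as 1 table of 10720 genes by 586 cells. Per the study's methods, the authors split reads by cell barcode, aligned them to the mm9 transcriptome, removed duplicates by UMI, kept genes with a mean above 0.2 counts and normalized the transcripts; the deposited values are log2 of normalized counts plus 1, and aligner and normalization method are not given in the sources used here. Undoing the log2 and each cell's size factor (0.118 to 5.43) gave whole UMI counts for 100% of values within 0.01. Cells under 2000 genes or 20000 UMIs over these genes were left out (93). No doublet caller was run, no columns gave barcodes, and 0 pairs of cells were identical. Counts were summed per label, with exact Poisson and Clopper-Pearson 95% intervals, in Python 3.11.15 with numpy 2.4.6, pandas 2.3.3 and scipy 1.17.1, and the scripts were tested on simulated data. Genes are named if they are members, list genes past 2-fold (up to 4 a list) or among the 5 most like Mt1, with Med23 and Zp3 as checks; any other gene was named after its values were seen. Cells with oocyte transcripts have over 1000 CPM of 15 oocyte genes. Members, lists and tests were chosen with earlier results of these data known. Promoters are RefSeq sequence of GRCm38.p6, a build other than mm9, matched by symbol for 5 of 5 members, and transcripts for shared sequence are those of the reference annotation.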

Additional observations from a re-analysis of the deposited data

How the results depend on the processing

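The log2 ratio of Mt1, -2.58, was -2.80 with cells thinned to 20000 UMIs, -2.27 on the scale the authors normalized, -3.72 with the richest cell of either label removed, -2.32 without oocyte-transcript cells, -3.87 without the KO cell with the most Mt2 and -3.61 without both. In the same order that of Mt2, -1.12, was -1.93, -0.65, -6.03, -0.32, -6.28 and -5.49. That of Slc39a10, -0.89, was -0.40 with thinned cells and -0.63 with the authors' values. Over 10 alternatives each, all 4 ratios stayed below 0, with Mtf1 between -0.48 and -0.12. The Mt1 share difference, -23.6 percentage points, was -38.4 without thinning, and r in KO, 0.65, was -0.016 without 1 cell. Genes past 2-fold, limited to a mean above 1 UMI, numbered 1 of the metallothioneins (2 before), 0 importers (1), 1 Mtf1-linked (2), 1 glucocorticoid (2), 1 copper (2), 0 iron (1) and 542 of 7546 over all genes (1599 of 10720). Without oocyte-transcript cells there were 1 metallothionein, 1 exporter (0 before), 2 importers, 1 Mtf1-linked gene and 0 iron genes. Over all genes there were then 1633 of 10720, and nothing is read from the list counts.

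No paired analysis was possible because replicates are not named in the columns and nothing was tested. Leaving out each library in turn was not run for that reason, and a fit without a gene filter was not run since the table was filtered before deposit. Leaving out the KO cell with the most Mt2, alone or with the oocyte-transcript cells, was chosen after the data were seen, as were per-cell counts and depth classes in these sets of cells. Counts limit Mt2 in KO most, at 3 UMIs outside 1 cell.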

Other observations

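Neighbouring metal pathways and hormone targets were described with the same counts. Of 13 copper genes 11 were in the table, 2 higher in KO and 9 lower, with a median log2 ratio of -0.21. Atp7a, which pumps copper into the secretory pathway and out of the cell, had 119 UMIs in WT and 269 in KO, a log2 ratio of 1.59 (1.27 to 1.91), and Cox11, a copper chaperone of cytochrome oxidase, had 381 and 142, a log2 ratio of -1.02 (-1.30 to -0.73). Without the oocyte-transcript cells these were 1.45 and -1.08, and the copper list had 3 genes higher and 8 lower, with a median of -0.05. Of 12 iron genes 10 were in the table, 8 higher in KO and 2 lower, with a median of 0.31. Hmox1, which frees iron from heme, had 77 and 142 UMIs, a log2 ratio of 1.29, and 0.93 without the oocyte-transcript cells. The iron list without those cells had 7 genes higher and 3 lower, with a median of 0.38.

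Glucocorticoids are known to raise Mt1 and Mt2, and 11 of 12 genes of a glucocorticoid response list were in the table, 7 higher in KO and 4 lower, with a median of 0.35. Dusp1, a phosphatase that shuts off MAP kinases, had 1014 UMIs in WT and 2197 in KO, a log2 ratio of 1.52 (1.42 to 1.63). Errfi1, an inhibitor of the EGF receptor, had 103 and 30, a log2 ratio of -1.37, which was -0.66 without the oocyte-transcript cells. Dusp1 is also an immediate early gene that cell handling can raise, and this was not tested. The glucocorticoid list without the oocyte-transcript cells had 7 genes higher and 4 lower, with a median of 0.22. All 3 lists stand beside 5562 of 10720 genes higher in KO and 5158 lower with all kept cells, and a median of 0.02.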
